A study of Drosophila melanogaster with 9 samples.

Results

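The 10 genes described here code for cyclins, cyclin-dependent kinases (Cdks), the Cdc25 phosphatases and a Cdk inhibitor of *Drosophila melanogaster*. They were taken by gene name as *CycA*, *CycB*, *CycB3*, *CycD*, *CycE*, *Cdk1*, *Cdk2*, *stg*, *twe* and *dap*, and all 10 were found among the 14306 genes listed for every group. RNA was sequenced from whole embryos collected 5 to 16 h after egg laying, with 3 libraries each of w1118, kah-deltaATG and kah-deltaznf. Kah is a zinc-finger transcription factor of the Snail type, and w1118 is the white-eyed laboratory strain that served as the control. Both alleles are CRISPR/Cas9 deletions: kah-deltaATG lacks most of the exon that holds the predicted start codon, and kah-deltaznf lacks, in frame, the stretch coding for the zinc fingers. The deletions are not limited to a tissue, and the labels do not say whether the embryos were homozygous. According to the methods, the 3 replicates of a genotype came from 1 collection of embryos. Collection and genotype are thus confounded, and the p-values measure the spread between libraries, which may be technical.

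Cdks are kinases that act only when bound to a cyclin. In the fly, Cdk1 with CycA, CycB or CycB3 drives mitosis, while Cdk2 with CycE starts DNA replication and CycD works with Cdk4 in growth and division. Cdk1 is held back by phosphates that Wee1 and Myt1 add and that the Cdc25 phosphatases String (*stg*) and Twine (*twe*) remove. The first, syncytial divisions of the embryo run on RNA and protein laid down by the mother, *twe* and *stg* among them. Later each division is timed by a pulse of zygotic *stg* transcription, and Dacapo (*dap*), an inhibitor of CycE with Cdk2, accompanies the exit from the cycle. In the embryos sampled here most epidermal cells have left or are leaving the mitotic cycle, while neuroblasts still divide.

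Each library held between 17990440 and 20036762 reads on genes, and the 10 genes had between 310 reads (*Cdk2*) and 24334 reads (*CycB*) per library. The share of mitochondrial reads was 8.67% to 11.2% in replicates 2 and 3 of w1118 and replicate 1 of kah-deltaznf, and 15.3% to 16.6% in the other 6 libraries. *Kah*, the targeted gene, was at 1569 to 1700 normalized counts in kah-deltaATG against 357 to 380 in w1118, and at 683 to 774 in kah-deltaznf against 362 to 377, so the libraries labelled mutant carried more, not less, of its RNA. Reads per gene do not show whether the deleted part was missing.

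The 10 genes together took 0.110% to 0.124% of the reads on genes in w1118, 0.226% to 0.250% in kah-deltaATG and 0.289% to 0.341% in kah-deltaznf. Their RNA was thus a larger part of the libraries in each mutant, and the 3 ranges did not overlap. In whole embryos, more cells that express a gene and more RNA per cell cannot be told apart.

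Levels are given below as normalized reads per kb of exon, with all 9 libraries on 1 scale, so that genes can be set side by side. Fold changes were fitted within the table of each mutant with limma on log2(normalized count + 1), and their standard error (SE) is given with them. Calls needed an adjusted p (Benjamini-Hochberg, over all genes tested) no higher than 0.05 together with a log2 fold change of 0.59 or more in either direction. In kah-deltaATG 6 of the 10 genes were called higher than in w1118, where 14.7% of the 10972 genes tested were called higher. These were *twe*, *CycB3*, *CycB*, *CycD*, *Cdk1* and *CycA*. In kah-deltaznf 9 of 10 were called higher, against 23.8% of 10957 genes, and the exception was *stg*. All libraries of kah-deltaATG were above all w1118 libraries for 9 of the 10 genes, a pattern that 29.6% of genes showed, and in kah-deltaznf this held for 10 of 10, against 37.4% of genes. The median log2 fold change of the 10 genes was 1.12 in kah-deltaATG and 1.51 in kah-deltaznf, against -0.02 and 0.001 over all genes tested.

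**Figure D1:**
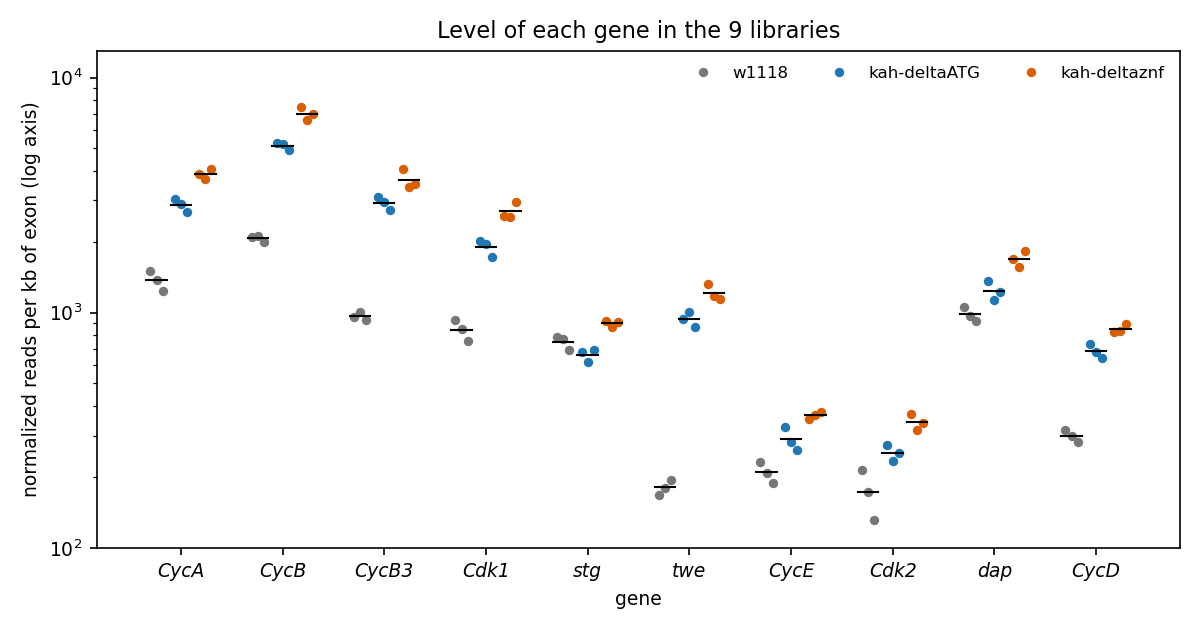
Normalized reads per kb of exon (log axis) of each gene, with 1 point per library in w1118 (grey), kah-deltaATG (blue) and kah-deltaznf (orange) and a bar at the mean of 3. For 9 genes both mutants lie above w1118, and for *stg* the kah-deltaATG libraries (614 to 692) lie just below it (693 to 785).

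The mitotic cyclins are the subunits that target Cdk1 to its substrates and are destroyed as mitosis ends. *CycB* (FBgn0000405; 2R, 22803521 to 22806948 in the BDGP6 assembly) had the highest level per kb of the 10 genes in every group. Its level was 2097, 2125 and 2002 reads per kb in w1118, 5293, 5202 and 4921 in kah-deltaATG, and 7460, 6580 and 6970 in kah-deltaznf. All mutant libraries lay well above the control libraries. The log2 fold change was 1.31 in kah-deltaATG (SE 0.06, adjusted p = 8.1e-07 by limma) and 1.76 in kah-deltaznf (SE 0.08, adjusted p = 7.3e-08 by limma).

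*CycB3* (FBgn0015625; 3R, 24867934 to 24870816), a B-type cyclin that promotes anaphase in the fly embryo, rose the most of the cyclins. It was at 960, 1008 and 934 reads per kb in w1118, at 3119, 2947 and 2720 in kah-deltaATG, and at 4076, 3409 and 3536 in kah-deltaznf. The log2 fold changes were 1.60 (SE 0.07, adjusted p = 7.0e-07 by limma) and 1.92 (SE 0.09, adjusted p = 7.2e-08 by limma). *CycB3* therefore stood at the level of *CycA* in both mutants, with overlapping replicates, whereas in w1118 it was below *CycA* in every library.

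*CycA* (FBgn0000404; 3L, 11826719 to 11833578), which acts with Cdk1 ahead of and during entry into mitosis, was at 1510, 1380 and 1236 reads per kb in w1118, at 3031, 2891 and 2679 in kah-deltaATG, and at 3875, 3699 and 4086 in kah-deltaznf. It rose by 1.07 (SE 0.09, adjusted p = 1.3e-05 by limma) and 1.51 (SE 0.09, adjusted p = 2.8e-07 by limma) on the log2 scale. The ratio of *CycB3* to *CycA* per kb was 0.636 to 0.756 in w1118, 1.02 to 1.03 in kah-deltaATG and 0.865 to 1.05 in kah-deltaznf. Both mutants lay above w1118 in every library (two-sided exact permutation p = 0.1 each, the smallest that 3 against 3 allows; adjusted over the 16 ratio tests, the p-value was 0.16 for each). The unadjusted p could not have fallen under 0.05.

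*Cdk1* (FBgn0004106; 2L, 10384739 to 10386262), the kinase partner of these cyclins, was at 929, 852 and 756 reads per kb in w1118. It was at 2019, 1955 and 1729 in kah-deltaATG and at 2579, 2554 and 2962 in kah-deltaznf, again with no overlap between mutants and control. The log2 fold changes were 1.18 (SE 0.10, adjusted p = 1.4e-05 by limma) and 1.68 (SE 0.10, adjusted p = 2.8e-07 by limma), close to those of *CycA*. The ratio of *Cdk1* to *CycB* per kb had a mean of 0.407 in w1118, 0.370 in kah-deltaATG and 0.386 in kah-deltaznf, and its ranges overlapped between each mutant and w1118 (exact permutation p = 0.2 and 0.5).

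Of the Cdc25 genes, *twe* rose in both mutants and *stg* was called in neither. *twe* (FBgn0002673; 2L, 16259414 to 16261877), the germline and maternal Cdc25 that is needed for meiosis, had the largest fold change of the 10 genes in each mutant. Its level was 168, 180 and 194 reads per kb in w1118, 939, 1005 and 870 in kah-deltaATG, and 1319, 1178 and 1142 in kah-deltaznf. Its log2 fold change was 2.38 in kah-deltaATG (SE 0.08, adjusted p = 3.4e-07 by limma) and 2.75 in kah-deltaznf (SE 0.09, adjusted p = 2.2e-08 by limma), or 5.21-fold and 6.72-fold. *twe* shares 98 exon bases with *EndoGI* on the other strand, and *EndoGI* was called in neither mutant (means of 456 and 461 normalized counts in the mutants against 515 and 519 in w1118).

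*stg* (FBgn0003525; 3R, 29251826 to 29255800), the zygotic Cdc25 that times the divisions after cellularisation, stayed nearest to its control level of the 10 genes in each mutant. It was at 785, 774 and 693 reads per kb in w1118, at 681, 614 and 692 in kah-deltaATG, and at 918, 868 and 917 in kah-deltaznf. The kah-deltaATG and w1118 libraries overlapped in normalized counts (1941 to 2159 against 2137 to 2486), with a log2 fold change of -0.17 (95% interval -0.35 to -0.002, limma adjusted p = 0.084). In kah-deltaznf all 3 libraries were above w1118, but by a log2 fold change of 0.27 only (95% interval 0.09 to 0.44, limma adjusted p = 0.012), under the limit of 0.59. The intervals leave out a change of 0.59 in either direction in both mutants.

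The ratio of *twe* to *stg* per kb was 0.213 to 0.279 in w1118, 1.26 to 1.64 in kah-deltaATG and 1.25 to 1.44 in kah-deltaznf. *twe* RNA was below *stg* RNA in every control library and above it in every mutant library (exact permutation p = 0.1 for each mutant, the smallest possible; 0.16 after adjustment over the 16 ratio tests). The summed Cdc25 level was 887 to 955 reads per kb in w1118, 1562 to 1620 in kah-deltaATG and 2047 to 2237 in kah-deltaznf. Of that sum *twe* made up 17.6% to 21.8% in w1118, 55.7% to 62.1% in kah-deltaATG and 55.5% to 59.0% in kah-deltaznf.

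**Figure D2:**
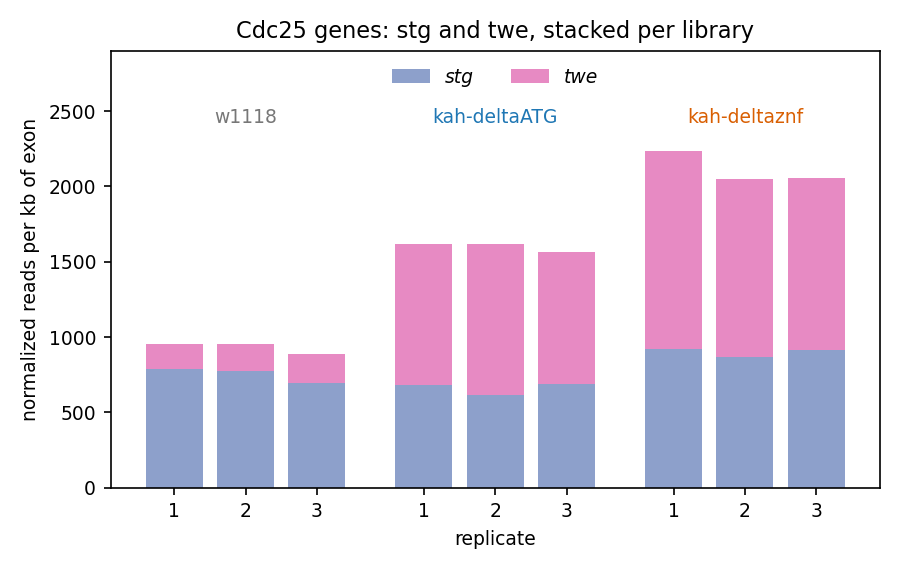
Normalized reads per kb of exon of *stg* (blue) and *twe* (pink), stacked, in each of the 9 libraries. The *stg* part stays between 614 and 918 in all libraries, while the *twe* part goes from at most 194 in w1118 to at least 870 in the mutants.

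The genes of the step into S phase had smaller fold changes than the mitotic cyclins and *Cdk1*. *CycE* (FBgn0010382; 2L, 15727581 to 15748150) was at 232, 209 and 189 reads per kb in w1118, at 325, 283 and 262 in kah-deltaATG, and at 354, 368 and 379 in kah-deltaznf. Its log2 fold change of 0.47 in kah-deltaATG (SE 0.10, adjusted p = 0.0049 by limma) was under the limit of 0.59, and that of 0.81 in kah-deltaznf (SE 0.09, adjusted p = 2.1e-05 by limma) was called. The antisense RNA and the long non-coding RNA whose exons share 248 bases with *CycE* had at most 12.1 normalized counts on average in any group.

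*Cdk2* (FBgn0004107; 3R, 20735623 to 20738414), the kinase bound by CycE, was at 214, 172 and 132 reads per kb in w1118, at 274, 234 and 252 in kah-deltaATG, and at 372, 318 and 341 in kah-deltaznf. Its control libraries were the most spread of the 10 genes. The log2 fold change was 0.58 in kah-deltaATG (SE 0.16, adjusted p = 0.015 by limma), just under the limit, and 1.02 in kah-deltaznf (SE 0.16, adjusted p = 1.8e-04 by limma). Without replicate 1 of w1118 the kah-deltaATG value was 0.76 and without replicate 2 of kah-deltaATG it was 0.63, and *Cdk2* was then called (limma, adjusted p of 2.0e-04 and 0.030), which made 7 of the 10 genes. *Cdk2* shares 1010 of its 2299 exon bases with *CG17267* on the other strand, which had at most 5.17 normalized counts on average in any group. Since the strand setting of the counting was not given, reads in the shared bases may be missing from both genes. The level of *Cdk2* per kb, its rank and its ratios to other genes are thus uncertain.

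*dap* (FBgn0010316; 2R, 9712321 to 9716256), the inhibitor, was at 1061, 972 and 922 reads per kb in w1118, at 1357, 1127 and 1221 in kah-deltaATG, and at 1693, 1561 and 1831 in kah-deltaznf. The log2 fold changes were 0.33 (SE 0.08, adjusted p = 0.0099 by limma), under the limit, and 0.79 (SE 0.09, adjusted p = 2.0e-05 by limma). The ratio of *CycE* to *dap* per kb overlapped between the groups, at 0.205 to 0.219 in w1118, 0.214 to 0.251 in kah-deltaATG and 0.207 to 0.236 in kah-deltaznf (exact permutation p = 0.3 and 0.8, where 3 against 3 libraries cannot go below 0.1). The ratio of *Cdk1* to *Cdk2* had a mean of 5.01 ± 0.69 in w1118, 7.53 ± 0.76 in kah-deltaATG and 7.89 ± 0.89 in kah-deltaznf (SD, n = 3 each; exact permutation p = 0.1 each, the smallest possible, and 0.16 after adjustment over the 16 ratio tests).

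*CycD* (FBgn0010315; X, 15906822 to 15909676), the partner of Cdk4, was at 317, 300 and 283 reads per kb in w1118, at 737, 680 and 645 in kah-deltaATG, and at 824, 837 and 895 in kah-deltaznf. It rose by 1.20 (SE 0.08, adjusted p = 4.3e-06 by limma) and 1.51 (SE 0.08, adjusted p = 1.8e-07 by limma) on the log2 scale. *Cdk4*, its kinase, was called higher in both mutants as well, but by 0.74 and 0.90.

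**Figure D3:**
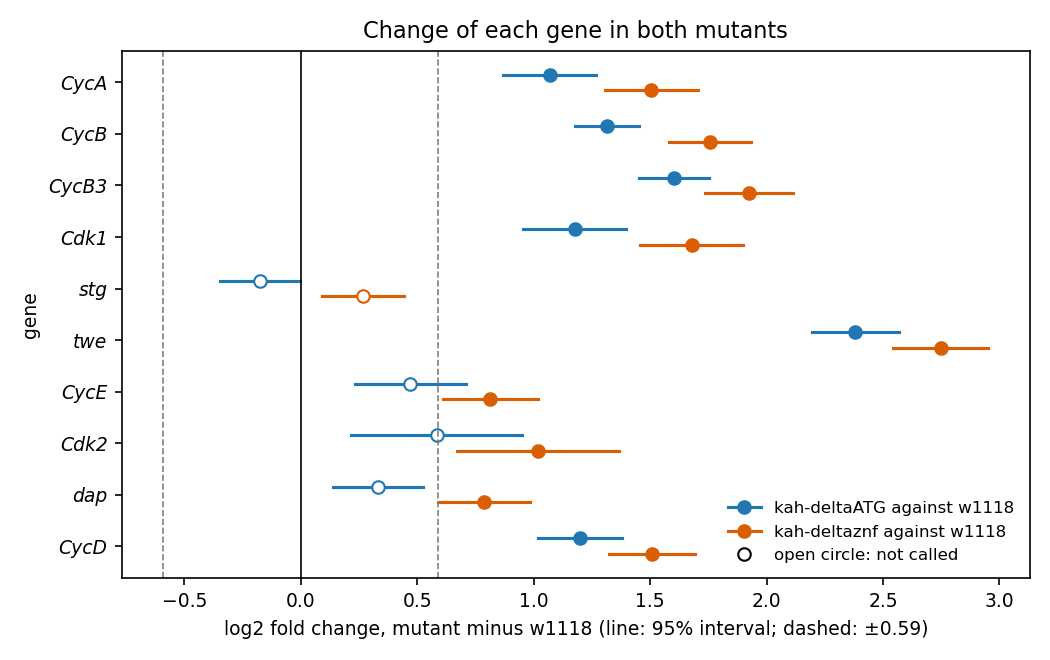
Log2 fold change of each gene against w1118 in kah-deltaATG (blue) and kah-deltaznf (orange), with its 95% interval (limma) and dashed lines at ±0.59, where open circles were not called. *twe* is farthest to the right (2.38 and 2.75) and *stg* is nearest to 0 (-0.17 and 0.27).

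In order of level per kb, w1118 embryos had *CycB* and then *CycA* at the top, followed by *dap* and *CycB3*, then *Cdk1* and *stg*, then *CycD*, and last *CycE*, *twe* and *Cdk2*. Neighbours named together within a step overlapped between replicates. In kah-deltaATG the order was *CycB*, *CycB3* with *CycA*, *Cdk1*, *dap*, *twe*, *CycD* with *stg*, and *CycE* with *Cdk2*. In kah-deltaznf it was *CycB*, *CycA* with *CycB3*, *Cdk1*, *dap*, *twe*, *stg* with *CycD*, and *CycE* with *Cdk2*. *twe* shifted most, from rank 9 in w1118 to rank 6 in both mutants. *dap* went from rank 3 to rank 5 in both, and in kah-deltaATG *CycB3* went from rank 4 to 2 and *stg* from rank 6 to 8.

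The mutants were set against each other in 1 fit of the 9 libraries on the joint scale. Every one of the 10 genes was higher in kah-deltaznf than in kah-deltaATG with no overlap between libraries, a pattern that 32.1% of the 11115 genes tested showed. The log2 differences were alike in size, from 0.31 (*CycD*) to 0.50 (*Cdk1*), with a median of 0.44 against 0.04 over all genes tested. The limma adjusted p was 4.2e-04 to 0.024, so that 10 of 10 genes were higher at an adjusted p of at most 0.05, as were 25.5% of all genes, and 10 of 10 had an unadjusted p under 0.05. However, 0 reached the limit of 0.59 in limma, edgeR or DESeq2, where 5.46% of all genes were called higher. For *stg* the difference between the mutants was 0.45 (SE 0.07, adjusted p = 6.3e-04 by limma), of the same size as for *CycB* (0.45) and *CycA* (0.44).

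Since mitochondrial reads divided the libraries, the differences were also taken within each side of that division. On the side with the larger share, which held 1 w1118 library, kah-deltaATG differed from w1118 by -0.25 (*stg*) to 2.48 (*twe*) on the log2 scale. There kah-deltaznf differed from w1118 by 0.18 to 2.79. On the side with the smaller share, which held 1 kah-deltaznf library, kah-deltaznf differed from w1118 by 0.33 to 2.82. Each of these values thus rests on 1 library in a group, and the differences of all genes within a side were not counted. *Cdk2* varied most with the side, at 0.24 in kah-deltaATG, and at 0.62 and 1.30 in kah-deltaznf. No value for kah-deltaATG could be had on the side with the smaller share, since all of its libraries lay on the other. A term for the split, in a fit of all 9 libraries, gave 6 and 9 of the 10 genes called higher. In that fit 1527 and 2560 of the 11115 genes tested were called higher.

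The wider Cdk network was followed through lists of regulators, activators and targets. Of the 74 genes of these 6 lists that were tested, 26 were called higher in kah-deltaATG and 50 in kah-deltaznf. Over all genes tested 14.7% and 23.8% were called higher. The median log2 fold changes of the 74 genes were 0.42 and 0.86. These medians were below those of the 10 genes. The only gene of the lists called lower than in w1118 was *Cdk5alpha*, a neuronal activator of Cdk5, at -0.64 in kah-deltaznf, where 25.5% of all genes tested were called lower. It was named after its values were seen, and without replicate 3 of kah-deltaznf or replicate 3 of w1118 it was not called.

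Among other cyclins and Cdks 5 of 18 genes tested were called higher in kah-deltaATG and 8 of 18 in kah-deltaznf, where 1 was called lower, against 14.7% and 23.8% of all genes called higher. When tested against a 1.5-fold change, 2 and 5 were called higher, against 805 of 10972 and 1697 of 10957 genes in that test. *Cks30A*, a small Cdk1-binding subunit needed for meiosis and the early divisions, rose the most. It was at 789, 681 and 736 normalized counts in kah-deltaATG against 301, 241 and 262 in w1118, with log2 fold changes of 1.46 and 1.77 in the mutants (adjusted p by limma of 7.1e-06 and 2.8e-07). The others with large changes were *CycC* (0.88 and 1.35) and *Cdk9* (0.95 and 1.33), which act in transcription, and *Cdk4*. *CycC* and *Cdk4* share exon bases with genes on the opposite strand, so their reads are uncertain.

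Of 9 genes of Cdk1 inhibition and checkpoint, 2 were called higher in kah-deltaATG and 7 in kah-deltaznf, against 14.7% and 23.8% of all genes, so that the kah-deltaATG count was near the background. *Wee1*, the kinase that places the phosphate that Cdc25 removes, was at 1178, 1119 and 1020 normalized counts in kah-deltaATG against 470, 490 and 475 in w1118, and at 1365, 1310 and 1321 in kah-deltaznf against 466, 498 and 483. Its log2 fold changes were 1.20 and 1.46 (limma, adjusted p of 4.0e-06 and 1.9e-07), though 334 of its exon bases overlap *Rat1* on the other strand. *mus304*, which codes for the partner of the checkpoint kinase Mei-41, rose by 1.26 and 1.67. *grp*, the fly Chk1, was at 0.56 and 0.98, and *tefu*, the fly ATM, was at 0.39 and 0.90, and both passed the fold limit in kah-deltaznf and not in kah-deltaATG. Between the mutants *grp* differed by 0.42 and *tefu* by 0.51 (limma, adjusted p of 8.1e-04 and 0.0025), under the fold limit.

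In the list of Greatwall, PP2A and mitotic kinases 4 of 8 genes were called higher in each mutant, and these were the kinases. Over all genes tested 14.7% were called higher in kah-deltaATG and 23.8% in kah-deltaznf. *polo*, which acts on Cdc25 and on the spindle, was at 9055, 8786 and 8074 normalized counts in kah-deltaATG against 2736, 2533 and 2434 in w1118, and at 12249, 11656 and 12089 in kah-deltaznf against 2711, 2574 and 2472. Its log2 fold changes of 1.75 and 2.21 (adjusted p by limma of 6.7e-07 and 2.2e-08) were above those of every cyclin of the 10 genes. *gwl*, which codes for Greatwall, the kinase that keeps PP2A from undoing Cdk1 phosphorylation, rose by 1.17 and 1.85. *aurA* and *aurB*, the Aurora kinases, rose by 0.69 and 0.66 in kah-deltaATG and by 1.44 and 1.35 in kah-deltaznf. The kinases *gwl*, *aurA* and *aurB* were also called higher in kah-deltaznf than in kah-deltaATG, by 0.69, 0.75 and 0.70. In that comparison 5.46% of all genes were called higher. When tested against a 1.5-fold change, 0 of the list were called higher between the mutants, against 72 of 11115 genes. Against w1118 that test called 2 higher in kah-deltaATG and 4 in kah-deltaznf, against 805 of 10972 and 1697 of 10957 genes. *tws*, the PP2A subunit that acts on Cdk1 substrates, was at -0.31 and -0.46 against w1118 and not called, and was named after its values were seen.

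Of 17 genes of cyclin destruction, 8 were called higher in kah-deltaATG and 13 in kah-deltaznf, against 14.7% and 23.8% of all genes. *fzy*, the fly Cdc20, which brings mitotic cyclins to the anaphase-promoting complex, rose by 0.86 and 1.47, and *Cdc16*, a subunit of that complex, by 1.39 and 1.71. *ago*, the F-box protein that marks CycE for destruction, rose by 1.15 and 1.51, more than *CycE* itself (0.47 and 0.81). *APC7* had the largest values, 2.05 and 2.23, on few reads (22.3 to 49.4 normalized counts in mutant libraries against 3.79 to 10.3 in w1118).

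The E2F and Rb family regulates the transcription of *CycE* and of replication genes. Of its 10 genes 2 were called higher in kah-deltaATG, a share near the 14.7% of all genes, and 6 in kah-deltaznf, against 23.8%. *Caf1*, a histone-binding protein shared by several chromatin complexes, rose by 1.55 and 2.03, and *mip40*, a subunit of the complex that holds E2F and Rb proteins, by 1.27 and 1.72. *mip130* and *Rbf2* were at 0.54 and 0.56 in kah-deltaATG and at 0.92 and 0.88 in kah-deltaznf, where they were called. *E2f1*, the activator, was not called (0.10 and 0.25), and nor was *Rbf*, its main repressor (-0.02 and 0.41); these were named after their values were seen. Without replicate 1 of w1118, 4 of the family were called in kah-deltaATG.

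All 12 S phase genes that E2F regulates were called higher in kah-deltaznf and 5 in kah-deltaATG, against 23.8% and 14.7% of all genes. Without replicate 1 of w1118, 9 of them were called higher in kah-deltaATG. *dup*, the fly Cdt1, rose by 1.54 and 2.07, *Mcm7*, a subunit of the replicative helicase, by 1.32 and 1.85, and *geminin*, the inhibitor of Dup, by 1.21 and 1.62. *Orc1*, a subunit of the origin recognition complex, differed in pattern from the rest. It was at 1751, 1714 and 1612 normalized counts in kah-deltaATG against 406, 346 and 324 in w1118, and at 853, 780 and 762 in kah-deltaznf against 403, 352 and 329. It was the only 1 of the 12 to be lower in kah-deltaznf than in kah-deltaATG, by a log2 difference of -1.09 (limma adjusted p = 6.8e-06). Of the bases of *Mcm7*, 2003 lie under an antisense RNA, and its reads are uncertain. Of the other genes named from these lists, *Cdc16*, *fzy*, *aurA*, *grp*, *E2f1*, *Rbf2*, *mip130* and *dup* also share exon bases with a neighbouring gene. Among the markers named below, *knk*, *nos*, *pgc*, *aub*, *gcl* and *ovo* share exon bases with another gene as well. *Orc1* and *vas* were not matched to the annotation.

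**Figure D4:**
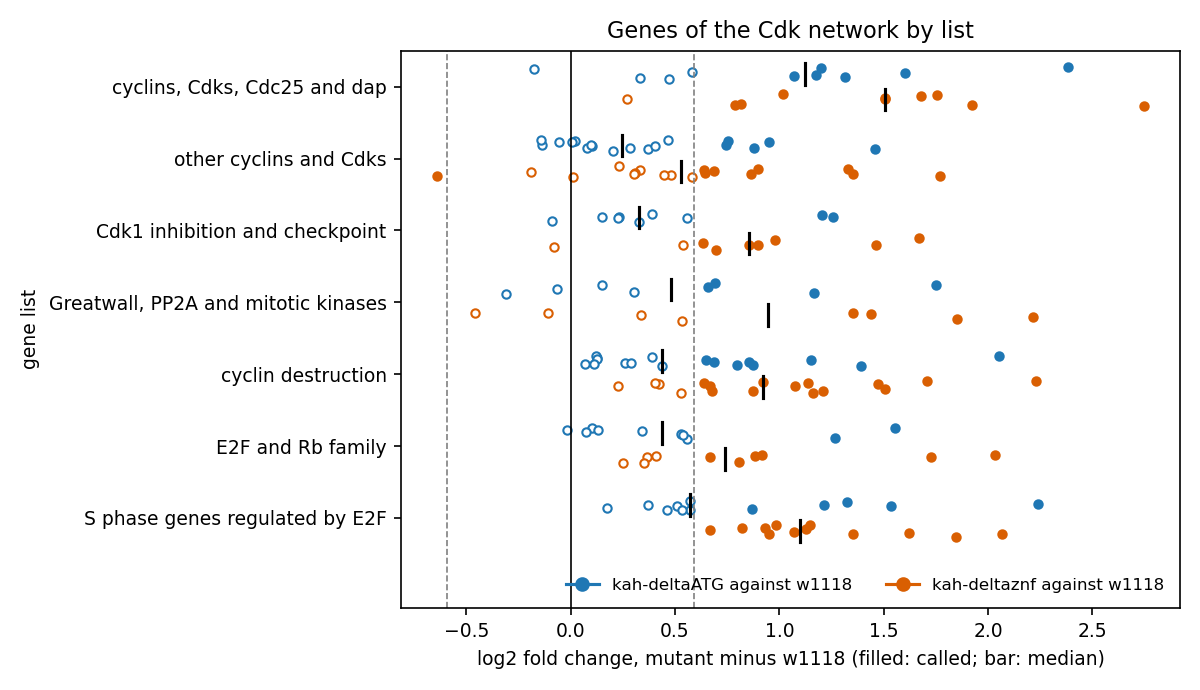
Log2 fold change of every tested gene of 7 lists in kah-deltaATG (blue) and kah-deltaznf (orange) against w1118, where filled points were called, black bars are medians and dashed lines stand at ±0.59. The medians lie above 0 for every list, and that of the cyclins, Cdks, Cdc25 genes and *dap* (1.12 and 1.51) is the farthest to the right.

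Several marker lists of stage and of cell types differed between the groups as well. Of 7 maternal egg markers, 6 were called higher in each mutant, against 14.7% and 23.8% of all genes, with medians of 1.87 and 2.51. Their summed level was 529 to 734 normalized counts in w1118, 2398 to 2658 in kah-deltaATG and 4218 to 4381 in kah-deltaznf. Among them, named after their values were seen, *swa*, which is needed to place *bcd* RNA in the egg, rose by 1.85 and 3.43, and *bcd* by 2.28 and 2.51. The summed level of 5 neuroblast markers was 3214 to 3654 in w1118, 4363 to 4878 in kah-deltaATG and 5783 to 6436 in kah-deltaznf, and 0 of the 5 were called higher in kah-deltaATG and 3 in kah-deltaznf, against 14.7% and 23.8% of all genes. Of the cellularisation stage markers, 2 of 7 tested in kah-deltaATG and 2 of 6 in kah-deltaznf were called higher, against 14.7% and 23.8% of all genes. The sum of these markers was 2347 to 2440 in w1118, 3212 to 3426 in kah-deltaATG and 3859 to 4241 in kah-deltaznf. Most of that rise was *slam*, which went from 217 to 300 normalized counts in w1118 to 1008 to 1180 in kah-deltaATG and 1333 to 1734 in kah-deltaznf. Without *slam* the sums were 2081 to 2223, 2204 to 2255 and 2507 to 2638, and those of w1118 and kah-deltaATG overlapped. These counts fell to 1 in kah-deltaATG without any single library of that mutant, and to 1 in kah-deltaznf without replicate 3 of w1118. *nullo*, which defines that stage, was at 0 reads in every w1118 library and at 0 to 3.02 normalized counts in the mutant libraries, too few to be tested. Of 6 germline markers 4 were called higher in each mutant, against 14.7% and 23.8% of all genes. Named after their values were seen, these were *vas*, *nos*, *pgc* and *aub*, at 0.76 to 2.06. When tested against a 1.5-fold change, 1 and 2 were called higher, against 805 of 10972 and 1697 of 10957 genes in that test. *gcl* (-0.39 and -0.57) and *ovo* (0.06 and 0.24) were not called. The sums of the 6 overlapped (3857 to 4335, 3782 to 4071 and 3688 to 4229), but were mostly *gcl* and *ovo*. Scaled with kah-deltaATG, these 2 had w1118 means of 2746 and 1046, and the others at most 176.

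Muscle and neuron markers were lower in summed level in both mutants, whereas the late cuticle markers were mixed. Over all genes tested 10.6% were called lower in kah-deltaATG and 25.5% in kah-deltaznf. The 6 muscle markers summed to 234931 to 314379 normalized counts in w1118, 171737 to 201450 in kah-deltaATG and 121318 to 157907 in kah-deltaznf, and 1 of 6 was called lower in kah-deltaATG (0 to 5 when 1 library was left out, highest without replicate 1 of w1118) and 6 in kah-deltaznf. The 5 neuron markers summed to 16812 to 23723, 14516 to 16575 and 10841 to 13154, and 4 were called lower in kah-deltaznf and 0 in kah-deltaATG (there 3 without replicate 1 of w1118 and 1 without replicate 2 of kah-deltaATG). Of 6 late cuticle markers 2 were called lower in each mutant and 1, *knk*, higher (1.65 and 1.16), with medians of 0.01 and -0.36. Over all genes tested 14.7% and 23.8% were called higher. Of the exon bases of *knk*, 1712 lie under an antisense RNA, and its reads are uncertain. The sums of the 6 late cuticle markers were 25737 to 30213 in w1118, 26126 to 28058 in kah-deltaATG, which overlapped, and 17949 to 21639 in kah-deltaznf. In kah-deltaATG 1 was called lower without its replicate 1 or without replicate 3 of w1118. The part of embryo age or cell make-up in the change of the cyclin and Cdk genes was not tested, and it cannot be told apart from an effect of the *Kah* alleles, because each genotype was 1 collection.

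**Figure D5:**
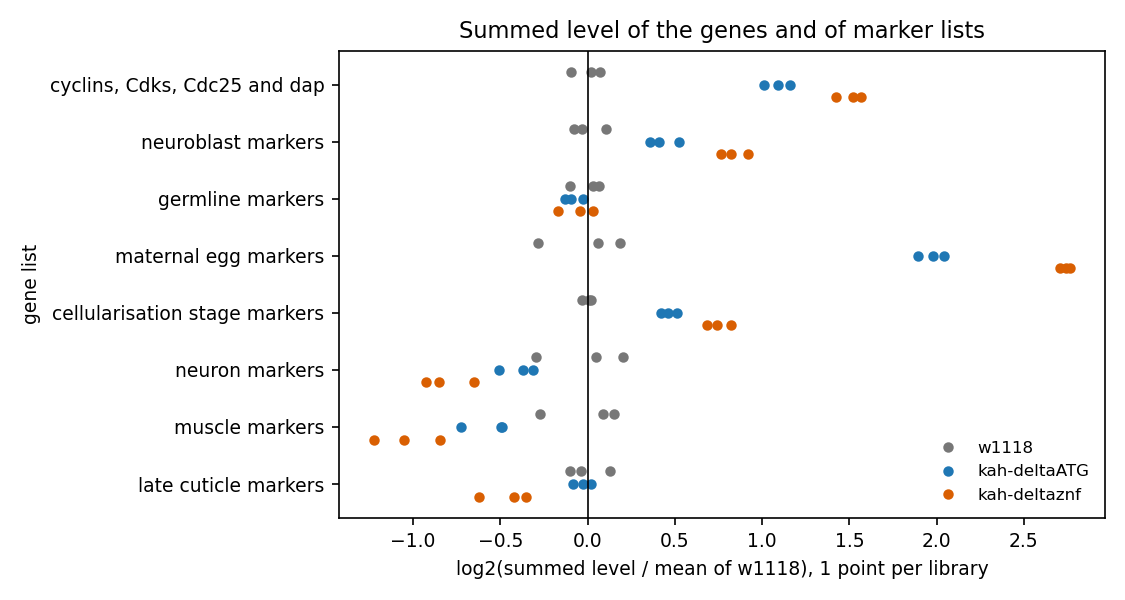
Summed level of the 10 genes and of each marker list in each library, as log2 of its ratio to the w1118 mean, with 1 point per library. The 10 genes and the neuroblast, maternal egg and cellularisation stage markers lie above 0 in all mutant libraries and highest in kah-deltaznf. Neuron and muscle markers lie below 0 in all mutant libraries, but also in replicate 1 of w1118 (-0.29 and -0.27).

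The genes most like each of the 10 in pattern were found by Pearson's r of log2(level + 1) over the 9 libraries, over 9352 genes whose mean level was 50 or higher. *CycA* and *Cdk1* were each other's nearest gene (r = 0.999). The nearest to *twe* were *CG11263* and *CG9153*, those to *CycB* were *Tl* and *Uba2*, those to *CycB3* were *Axud1* and *retn*, and those to *CycD* were *Chi* and *insv*. The nearest to *dap* were *pon* and *E(spl)mdelta-HLH* (r = 0.993 each), those to *CycE* were *CG8950* and *E(spl)m4-BFM* (r = 0.992 each), and those to *Cdk2* were *Ugt* and *CG4293*. *stg* had the least close neighbours, *Nat1* and *A16* (r = 0.976 for *Nat1*). These values describe likeness only, since most of the spread over 9 libraries comes from the 3 groups.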

How the data were processed

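The authors aligned paired-end reads to BDGP6 with HISAT2 2.0.5, counted them with featureCounts 1.5.0-p3 and used DESeq2 1.20.0 (the submitters' processing notes). The strand setting was not given in the sources used here. They deposited 1 table per mutant, in which the signal of a gene is its reads divided by a size factor per library (normalized count). The deposited tables also hold the authors' fold changes and p-values, which were not used. Whole reads were recovered for 100% of values (tolerance 0.01), and the chi-square per degree of freedom between replicates was 5.42 or higher, so none was a repeat of another.

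Each mutant was compared with w1118 in its own table by limma 3.58.1 (R 4.3.3) with a mean-variance trend on log2(value + 1), which understates changes of low genes, after leaving out genes that did not reach 10 in 3 or more of the 6 libraries. The mutants were compared on recovered reads of the 9 libraries scaled together. Ratios within libraries were tested with two-sided exact permutation tests. The limma fit was tested on simulated data. Exon lengths and overlaps came from Ensembl annotation 115 of the same assembly.

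Same-numbered libraries of kah-deltaATG and w1118 deviated together (r = 0.43, 0.25 and 0.16), which is a hint from the data and not from the labels. Those of kah-deltaznf and w1118 did not (-0.40, -0.18 and -0.24). Unlike-numbered libraries ranged from -0.36 to 0.24 for kah-deltaATG with w1118 and from -0.27 to 0.36 for kah-deltaznf with w1118. The ranges of like and unlike numbers overlapped for each mutant, so a pairing by number is not established. Alternatives were edgeR 4.0.16 (quasi-likelihood, TMM), DESeq2 1.42.0, TMM-scaled CPM in limma, no filter, a pseudocount of 10, a test against a fold change of 1.5, blocking on the replicate number, all 9 libraries in 1 fit, a term for the mitochondrial split, and each replicate left out. Beyond the 10 genes, up to 4 genes per list with the largest change in either mutant and the 2 most similar genes per member were named. The 10 genes and the lists were chosen with earlier results of these data known. *lmg*, *Sry-alpha* and *frs* were not matched. Plots were drawn with matplotlib 3.10.9.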

Additional observations from a re-analysis of the deposited data

How the results depend on the processing

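Every log2 fold change of the 10 genes kept its sign under all alternatives run, and called genes stayed called except when tested against a 1.5-fold change. There *CycE* and *dap* were not called in kah-deltaznf (limma adjusted p = 0.053 and 0.072), which left 7 of 10 called higher, while kah-deltaATG had 6. With 1 library left out, 6 or 7 of the 10 were called in kah-deltaATG, 9 in kah-deltaznf and 0 between the mutants. Over all genes, testing against a 1.5-fold change called 805 higher and 247 lower in kah-deltaATG, 1697 and 1591 in kah-deltaznf, and 72 and 158 between the mutants, against 1615 and 1165, 2607 and 2793, and 607 and 1424. Leaving out 1 library gave 1455 to 1780 higher and 804 to 1430 lower in kah-deltaATG, 2416 to 2722 and 2436 to 2775 in kah-deltaznf, and 459 to 715 and 1209 to 1517 between the mutants.

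With the replicate block, 6, 9 and 0 of the 10 genes were called higher in kah-deltaATG, in kah-deltaznf and between the mutants, and 1639, 2577 and 590 of all genes. The block changed no call of the 10 genes.

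When tested against a 1.5-fold change, the lists kept fewer calls, such as 2 of other cyclins and Cdks in kah-deltaATG and 5 in kah-deltaznf, and 5 and 8 of cyclin destruction. Over all genes that test called 805 of 10972 and 1697 of 10957 higher. The lowest count, 310 reads of *Cdk2*, limits that gene most, and the cause of its spread in w1118 was not tested.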

Other observations

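The Cdk-activating kinase, which phosphorylates Cdk1 and Cdk2 on their activating loop, consists of *Cdk7*, *CycH* and *Mat1*. These genes were singled out after their values were seen. *Cdk7* was at 147, 163 and 127 normalized counts in kah-deltaATG against 148, 154 and 129 in w1118, and at 244, 236 and 219 in kah-deltaznf against 147, 156 and 131. Its log2 fold changes were 0.02 (adjusted p = 0.92 by limma) and 0.69 (adjusted p = 6.0e-04 by limma). The difference between the mutants was 0.67 (adjusted p = 0.0014 by limma) and was called, as were 5.46% of all genes in that direction. Without replicate 3 of kah-deltaATG, or when tested against a 1.5-fold change, that difference was not called. *CycH* had 0.10 and 0.64 (limma, adjusted p of 0.60 and 0.0013), with a difference of 0.54 between the mutants that was under the limit of 0.59. *Mat1* was called in neither mutant, at 0.08 and 0.45. In kah-deltaATG these 3 genes thus lay between 0.02 and 0.10 on the log2 scale while *Cdk1* was at 1.18, and in kah-deltaznf between 0.45 and 0.69 while *Cdk1* was at 1.68.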
